A study of Homo sapiens with 6 samples.

Results

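The proteasome genes of MDA-MB-231 cells are described here, with their levels in unirradiated cells and the changes measured 24 h after 10 Gy. Members were all rows of the deposited table that are annotated as protein coding and are named PSM, a letter from A to G and a number. This rule found 48 of 58735 rows and used no measured value. They were 7 alpha (PSMA1 to PSMA7) and 7 beta (PSMB1 to PSMB7) subunits of the core particle, the 3 inducible catalytic subunits PSMB8, PSMB9 and PSMB10, 6 ATPases (PSMC) and 11 non-ATPase subunits (PSMD) of the regulatory particle, 3 chaperones of its base (PSMD5, PSMD9 and PSMD10), 4 chaperones of the core (PSMG1 to PSMG4), 4 activators (PSME1 to PSME4) and the inhibitor gene PSMF1. The other 2 members, PSMA8 and PSMB11, encode a testis and a thymus form of core subunits.

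MDA-MB-231 is an established human line derived from a breast adenocarcinoma of basal-like type. The 6 libraries carry the name SCR, which in the paper stands for a non-targeting shRNA (shSCR), and the genotype is given as WT. A group of 3 control libraries received 0 Gy and a group of 3 received 10 Gy from a 137Cs gamma source, with RNA taken 24 h later. All are of 1 cell line, and no source used here says that the 3 libraries of a dose came from separate cultures, so the p-values measure the spread between these libraries, which may be technical.

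The proteasome degrades proteins that carry ubiquitin chains. Its core particle is a barrel of alpha and beta rings whose catalytic sites lie on the beta subunits PSMB5, PSMB6 and PSMB7, and interferon gamma is known to induce PSMB8, PSMB9 and PSMB10, which take the places of these subunits in the immunoproteasome. The regulatory particle binds ubiquitin, removes it and threads the substrate into the core by means of its ATPase ring, while PSMG and some PSMD proteins are chaperones that help to build the particles and leave them again. When proteasome activity is short, the transcription factor NFE2L1 (NRF1) is known to raise the subunit genes together, with small MAF proteins as partners, through antioxidant response elements in their promoters.

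The identity of the line was checked on its markers. VIM was between 247.5 and 311.8 FPKM (fragments per kilobase of gene, scaled to depth), CD44 between 72.3 and 81.4 and EGFR between 26.4 and 31.6, whereas PGR and CD3E were listed at 0 in every library and ESR1, PTPRC, CD68 and CDH1 stayed under 0.48. EPCAM (1.20 to 1.51), ERBB2 (6.76 to 8.08) and the endothelial marker PECAM1 (1.22 to 1.97) were low. PECAM1 was at 1.22 to 1.23 FPKM at 0 Gy and at 1.88 to 1.97 at 10 Gy, and VIM at 294 to 312 and 247.5 to 255.2, and their part in the results below was not tested. Reads recovered from the deposited values numbered 15643641 to 28861781 per library. Tested members rested on 83 to 19315 reads each in a library. Of the 45 tested members, 36 had their highest 0 Gy value in 0 Gy library 1, and results without that library are given below.

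The members differed widely in level in the unirradiated cells. Values in FPKM divide by the summed exon length of the gene, and are given as mean ± SD (n = 3). The alpha subunits ranged from 0.894 ± 0.0771 (PSMA2) to 281 ± 17.4 (PSMA7), with a median of 21.9. The beta subunits lay closer together, between 41.6 ± 1.09 (PSMB2) and 139 ± 6.84 (PSMB7), with a median of 119.8. The ATPases ranged from 14.1 ± 0.440 (PSMC1) to 128 ± 8.83 (PSMC3), and the non-ATPase subunits from 15.5 ± 0.344 (PSMD6) to 132 ± 4.98 (PSMD2, a large subunit of the base). Chaperones were low, from 1.63 ± 0.0806 (PSMG4) to 20.3 ± 3.19 (PSMG3) for the core and from 1.70 ± 0.184 (PSMD9) to 24.2 ± 0.786 (PSMD5) for the regulatory particle. Among the activators, PSME1 was highest at 83.5 ± 7.20 and PSME4 lowest at 9.91 ± 0.396, and PSMF1 was at 26.6 ± 0.791. All members summed to 2342 ± 110 FPKM (0.858% of the FPKM of all genes), of which the 14 core subunits made up 1145 ± 65.6. PSMA8 was listed at 0 in all 6 libraries and PSMB11 was at most 0.0308.

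**Figure D1:**
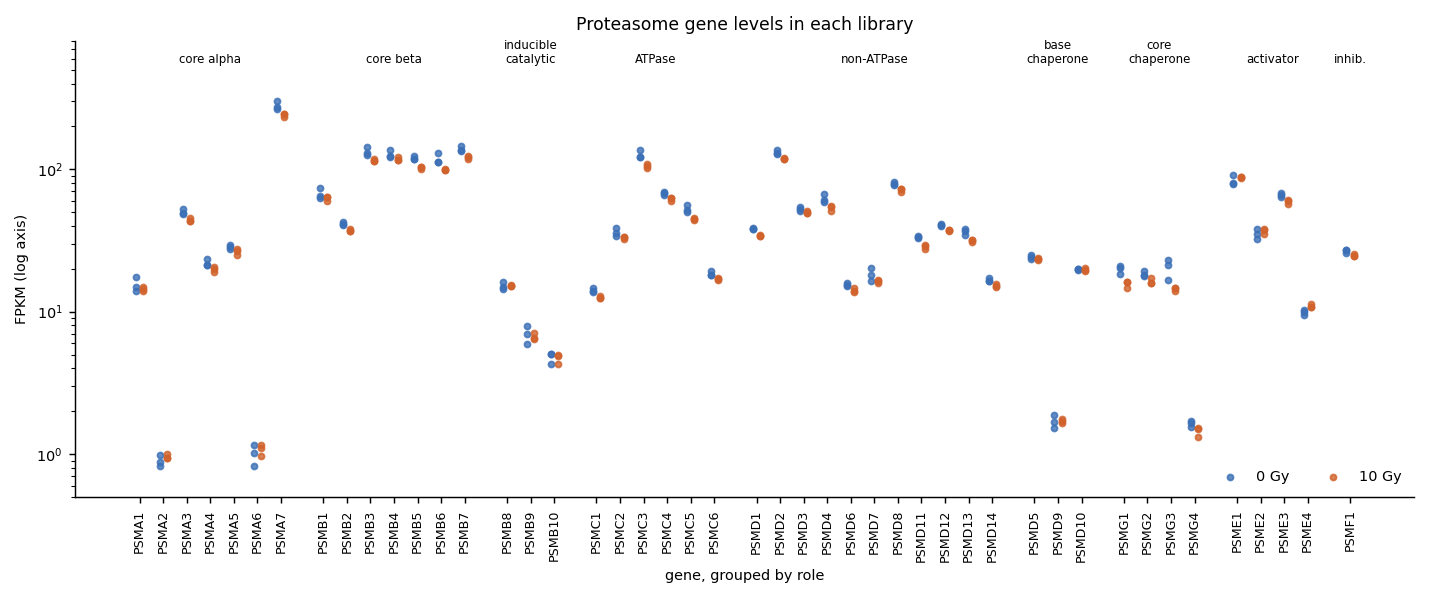
Level of 46 proteasome genes in each library, as FPKM on a log axis, with genes on the horizontal axis grouped by role and 1 point per library (blue 0 Gy, orange 10 Gy). The beta subunits lie between 41.6 and 139 FPKM at 0 Gy, whereas PSMA2, PSMA6, PSMD9 and PSMG4 lie under 2. PSMA8 and PSMB11 are at or near 0 and are not drawn.

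Subunits that are present once in each ring were therefore listed at unequal levels, and part of this spread coincided with features of the gene models. The deposited lengths equal the union of all annotated exons (GENCODE 29) in 99.98% of genes, which for members was 1.00 to 12.4 times the length of the principal transcript, with PSMG4 at 12.4. Dividing by the principal transcript gave PSMG4 20.3 in place of 1.63 FPKM, near the 23.2 of PSMG1. It reduced the coefficient of variation among the 14 core subunits only from 94.2% to 89.5%, and PSMA7 stayed highest. A second feature was shared exons. In 5 members, between 43.8% and 81.0% of the principal transcript is covered on the same strand by exons of another annotated gene, and in the others at most 0.0712%. They were the 3 lowest alpha genes, the lowest inducible gene and the lowest base chaperone. PSMA6 (81.0%, AL121594.1) was at 1.01, 0.830 and 1.15 FPKM at 0 Gy and 1.10, 0.968 and 1.16 at 10 Gy. PSMA2 (52.5%, AC010132.3) was at 0.826, 0.878 and 0.978 at 0 Gy and 1.00, 0.945 and 0.943 at 10 Gy, and its mean under 1 kept it out of the test. The doses overlapped in both genes. PSMA1 (53.2%, AC018523.2) was at 15.4 ± 1.77, PSMB10 (45.3%, AC040162.1) at 4.78 ± 0.432 and PSMD9 (43.8%, AC069503.2 and WDR66) at 1.70 ± 0.184 FPKM at 0 Gy. The AC and AL partners are annotated as readthrough transcripts and were at no more than 0.116 FPKM on average. How reads in shared exons were counted is not given in the sources used here and their part in these levels was not tested, so the levels of these 5 genes are uncertain. Of 32 rows of proteasome pseudogenes, 2 reached a mean of 1 FPKM, PSMC1P1 at 2.46 and PSMA6P1 at 2.00, the latter above PSMA6 itself. Reads of a gene and of its near copy cannot be told apart here. On the opposite strand, exons of NRDE2 (1.32 FPKM on average) lie in 82.1% of the principal transcript of PSMC1 and other exons in 50.4% of that of PSMD7. Exons of FTSJ3, at 35.3 FPKM on average, lie in 27.2% of the principal transcript of PSMC5. Whether strand was used in counting is not given, so the values of these genes may hold reads of their partners.

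**Figure D2:**
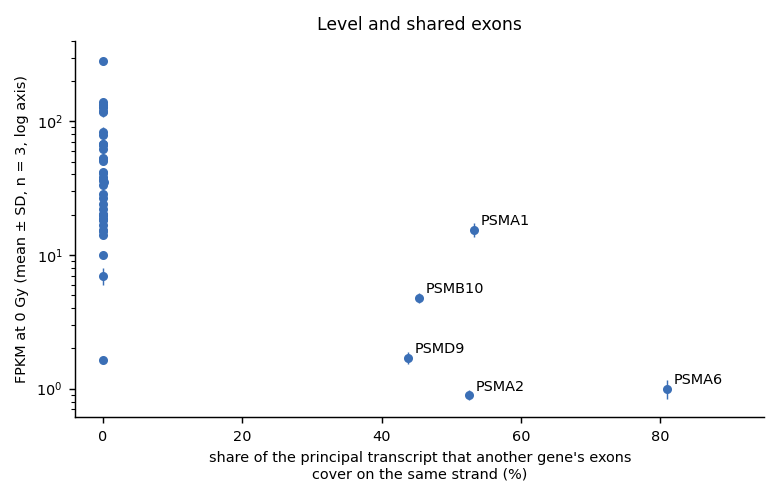
Level at 0 Gy (FPKM, log axis, mean and SD of 3 libraries) of 46 proteasome genes against the share of the principal transcript that lies in same-strand exons of another gene (percent). The 5 genes with a share over 40% have levels between 0.894 and 15.4 FPKM, and the other genes reach 281.

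Promoters could be read for 42 of the 48 members, in 51 windows of 250 bases before to 50 bases after a transcription start (RefSeq, GRCh38.p14). The interferon-type core GAAANNGAA, searched on both strands, was in windows of 8 members (15.7% of member windows, against 8.11% of all 35093 windows). These included PSMB8, PSMB10 and both PSME1 and PSME2, whose products form the interferon-inducible 11S activator. Of these, the stretches that end at or just past the start are shown for PSMB8, PSMB10 and PSME2, with the match in capitals, since all 3 hold the same 9 letters, PSMB8 on the other strand. The core chaperone gene PSMG4 holds these letters as well, 33 bases before a start.
PSMB8 (chr6:32844042-32844080, minus strand): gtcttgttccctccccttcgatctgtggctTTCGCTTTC
PSMB10 (chr16:67936851-67936901, minus strand): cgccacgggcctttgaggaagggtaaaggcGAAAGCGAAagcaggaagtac
PSME2 (chr14:24146611-24146668, minus strand): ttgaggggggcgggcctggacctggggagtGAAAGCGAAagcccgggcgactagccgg
In PSME1 the same letters as in PSMB8 lie 6 bases past the start. PSMB9 holds no such match, but its window has a match to the antioxidant response element core TGACNNNGC. That core, again on both strands, was in windows of 15 members (29.4%, against 13.4% of all windows). These include PSME4, the only member called higher below, where the core lies 34 bases before a start. Of the tested members with a window, 7 of 15 with this core and 13 of 24 without it were called lower below. Stretches around the core are shown for 4 members picked because their levels fell, with the core in capitals, to let its surroundings be compared.
PSMG1 (chr21:39183596-39183664, minus strand): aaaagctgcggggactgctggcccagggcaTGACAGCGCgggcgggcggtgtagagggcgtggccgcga
PSMB3 (chr17:38752607-38752675, plus strand): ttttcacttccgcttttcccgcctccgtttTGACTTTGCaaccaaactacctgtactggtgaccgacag
PSMD12 (chr17:67366704-67366772, minus strand): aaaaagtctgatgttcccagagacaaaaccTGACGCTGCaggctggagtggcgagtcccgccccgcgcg
PSMG2 (chr18:12658669-12658737, plus strand): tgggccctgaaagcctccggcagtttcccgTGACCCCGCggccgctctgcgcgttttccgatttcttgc
The match begins 183 bases before the start in PSMG1, 104 in PSMB3, 165 in PSMD12 and 39 in PSMG2. The CCAAT box was about as common in members (39.2% of windows) as in all windows (34.6%), and TTCNNNGAA, another interferon-type element, was in 15.7% against 7.66%. A match of letters is a description and not a shown binding site.

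After 10 Gy, most subunit genes were lower than in the controls by a small margin. In limma on log2(FPKM + 1) with Benjamini-Hochberg adjustment over 12128 genes, 25 of the 45 tested members were called lower (adjusted p under 0.05), 1 was called higher and 19 were not called. The background over all tested genes was 23.7% lower and 11.9% higher. In 32 members all 3 libraries at 10 Gy lay below all 3 at 0 Gy, against 32.8% of all tested genes, and in 1 they lay above. The median log2 fold change of the members was -0.13, against -0.04 for all tested genes. Members are abundant genes, and among all genes whose mean reached 5 FPKM the median was -0.08 and 34.7% were called lower, against 25 of 41 members (61.0%). In bulk libraries, fewer cells that express a gene and less RNA per cell cannot be told apart. The falls of called members ranged from -8.11% to -28.9%, and PSMG3 alone was lower by 1.3-fold or more (2.22% of tested members, against 2.95% of all tested genes). Summed over all members, the level was 2469, 2280 and 2277 FPKM at 0 Gy and 2079, 2069 and 2120 at 10 Gy, so the groups did not overlap, and the sum changed by -10.8%. As a share of the FPKM of all genes it was 0.858% at 0 Gy and 0.837% at 10 Gy.

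How many members pass the test depended on how libraries were scaled, so the changes are also given against the median of all genes. The deposited values hold a factor for each library, since each was divided by 0.972 to 0.991 times its own reads at 0 Gy and by 1.03 to 1.04 times at 10 Gy. With values scaled to equal sums (TPM), the median of all tested genes moved from -0.04 to 0.07, 3 members were called lower (PSMC3, PSMG1 and PSMG3) and 4 higher (PSMB8, PSME1, PSME2 and PSME4). These are 6.67% and 8.89% of the tested members, against 8.84% and 25.8% of all tested genes, so with TPM the share of members called lower was not above the background. Of all calls, 66.6% were lower as deposited, 25.5% with TPM, 36.1% with upper quartile scaling and 41.8% with each library's own reads as divisor. Upper quartile scaling called 8 members lower (17.8%, against 11.9% of all genes) and 3 higher (6.67% against 21.1%). Own reads called 12 lower (26.7% against 13.6%) and 1 higher (2.22% against 19.0%), and median-of-ratios scaling 25 lower and 1 higher. With the deposited values the median of members minus that of all genes was -0.09, and 36 of the 45 members lay below the latter. A scaling shifts all genes of a library by nearly the same amount, so that distance moves little by construction (-0.09 to -0.08 over the 5 scalings) and its constancy is no sign of stability. Without 10 Gy library 1 the test called 12 members lower (26.7%, against 15.1% of all genes), without 10 Gy library 2 it called 13 (28.9% against 14.9%), and without 0 Gy library 1 it called 21 (46.7% against 21.4%).

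**Figure D3:**
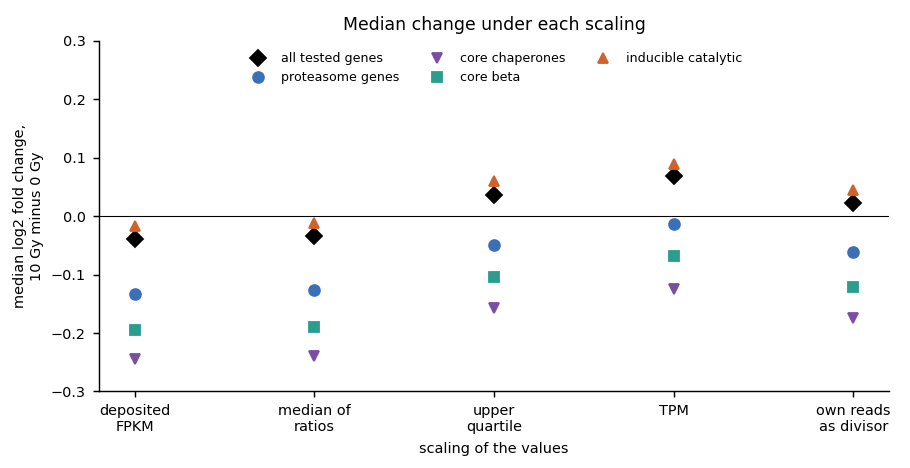
Median log2 fold change (10 Gy minus 0 Gy) under 5 scalings of the values, for all tested genes and for 4 sets of proteasome genes. Under each scaling the median of proteasome genes lies below that of all genes, which itself moves from -0.04 with the deposited values to 0.07 with TPM. The sets keep their distances by construction, since a scaling shifts all genes alike.

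**Figure D4:**
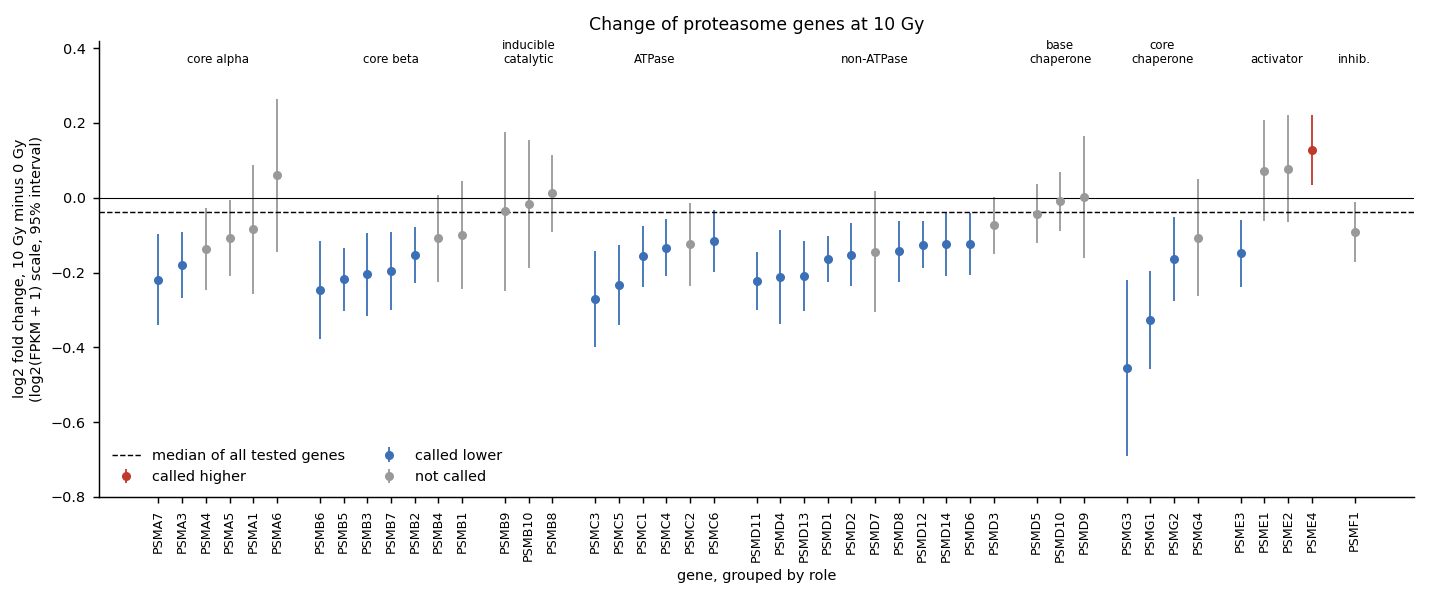
Log2 fold change of the 45 tested proteasome genes on the log2(FPKM + 1) scale with its 95% interval, grouped by role (blue called lower, red called higher, grey not called). The dashed line is the median of all tested genes at -0.04, and with TPM scaling the calls shrink to 3 lower and 4 higher.

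Core subunits were lower in most cases. All 7 beta subunits had negative changes as deposited and 5 were called lower, against 23.7% of all tested genes. No beta subunit was called lower with TPM. Their median log2 fold change of -0.20 stayed negative under all scalings (-0.07 with TPM), although PSMB1 and PSMB4 turned positive with TPM. PSMB6, which carries the caspase-like site, was at 129, 112 and 113 FPKM at 0 Gy and at 98.8, 99.0 and 100.2 at 10 Gy, with all irradiated libraries below the controls. Its log2 fold change was -0.25 ± 0.06 (SE, adjusted p = 0.014). PSMB5, the chymotrypsin-like site, fell from 124, 117 and 118 FPKM to 104, 105 and 100.2, again with no overlap (log2 fold change -0.22 ± 0.04, adjusted p = 0.0044). PSMB7, the trypsin-like site, was at 147, 136 and 134 FPKM at 0 Gy and 122, 117 and 124 at 10 Gy (log2 fold change -0.20 ± 0.04, adjusted p = 0.014). The structural subunits PSMB3 (-13.4%) and PSMB2 (-10.3%) also fell, while PSMB1 (-6.95%) and PSMB4 (-7.37%) did not pass. PSMB2, the lowest beta gene, was at 42.8, 40.9 and 41.0 FPKM at 0 Gy and at 36.9, 36.9 and 38.1 at 10 Gy.

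Of the 6 alpha subunits tested, PSMA7 and PSMA3 were called lower, against 23.7% of all tested genes. With TPM neither kept its call, and the median of -0.12 became 0.00071. PSMA7, the most abundant member, was at 300.2, 267 and 276 FPKM at 0 Gy and at 232, 246 and 245 at 10 Gy. Every irradiated library lay below every control (log2 fold change -0.22 ± 0.05, adjusted p = 0.017). PSMA3 fell from 52.3, 48.7 and 49.2 FPKM to 43.3, 43.7 and 45.2 (adjusted p = 0.010). PSMA4 and PSMA5 also had no overlap between doses, but with adjusted p-values of 0.057 and 0.091 they were not called, and PSMA1 and PSMA6, with shared exons, overlapped.

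The inducible catalytic subunits kept levels close to those of the controls. None of the 3 was called by limma, none had an unadjusted p under 0.05, and with TPM PSMB8 alone was called, as higher. PSMB8 was at 16.2, 14.9 and 14.5 FPKM at 0 Gy and at 15.3, 15.5 and 15.2 at 10 Gy, with the irradiated libraries inside the range of the controls. Its log2 fold change was 0.01 (95% interval -0.09 to 0.12). PSMB9 was at 7.94, 5.93 and 6.94 FPKM at 0 Gy and 6.56, 6.42 and 7.13 at 10 Gy (log2 fold change -0.04, 95% interval -0.25 to 0.18). PSMB10 was at 5.01, 5.06 and 4.29 FPKM at 0 Gy and 4.87, 4.29 and 4.99 at 10 Gy (log2 fold change -0.02, 95% interval -0.19 to 0.15). The intervals include falls as large as -0.09 to -0.25, so a small change in either direction was not detectable for PSMB9 and PSMB10.

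Within a library, the ratio of an inducible subunit to the constitutive subunit at the same position does not depend on scaling, apart from the added 1 FPKM. PSMB8 was at 12.7 ± 0.381% of PSMB5 at 0 Gy and at 14.9 ± 0.234% at 10 Gy (SD, n = 3). On the log2 scale this ratio was -2.86, -2.89 and -2.94 at 0 Gy and -2.69, -2.68 and -2.64 at 10 Gy, a difference of 0.23. PSMB9 was at 5.85 ± 0.484% and 6.75 ± 0.327% of PSMB6, with a log2 difference of 0.21. PSMB10 was at 3.44 ± 0.262% and 3.88 ± 0.200% of PSMB7, with a log2 difference of 0.18. On this log2 scale, all 3 irradiated libraries lay above all controls in each of the 3 ratios. This is the most that this design can show (exact permutation test, two-sided p = 0.1 and adjusted p = 0.1, the smallest that 3 libraries against 3 allow). For PSMB10 to PSMB7 the margin was small (-4.48 in 10 Gy library 2 against -4.5 in 0 Gy library 2). It rested on the added 1 FPKM, since without it the ratio of 10 Gy library 2 lay below that of 0 Gy library 2. In each pair, the constitutive gene was called lower with the deposited values and the inducible gene was not called. The inducible genes stayed much lower than their counterparts at both doses.

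**Figure D5:**
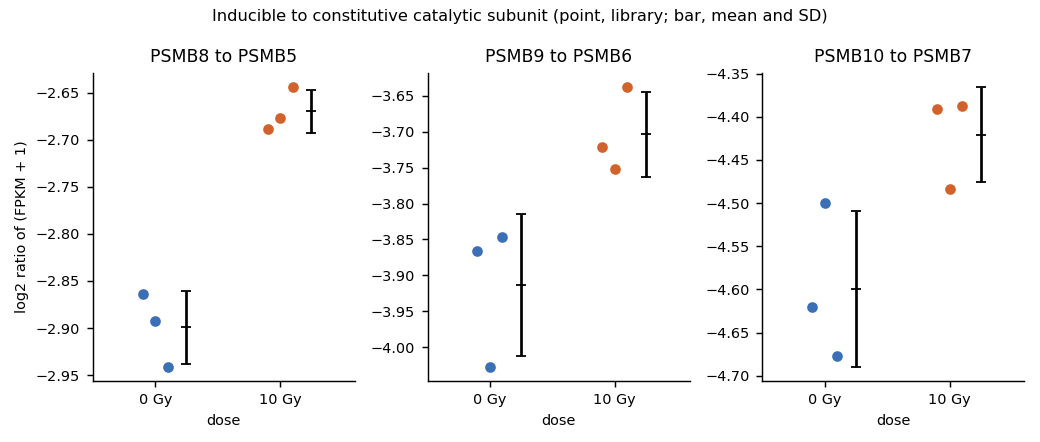
Log2 ratio of inducible to constitutive catalytic subunit in each library, from (FPKM + 1), for PSMB8 to PSMB5, PSMB9 to PSMB6 and PSMB10 to PSMB7 (points are libraries, bars are mean and SD, n = 3). In all 3 panels the irradiated libraries lie above the controls, by 0.23, 0.21 and 0.18 on average, and the vertical axes differ between panels and do not start at 0. For PSMB10 to PSMB7 this separation rests on the added 1 FPKM.

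In the regulatory particle, 5 of 6 ATPases and 9 of 11 non-ATPase subunits were called lower, against 23.7% of all tested genes. The median log2 fold change was -0.14 in both sets (-0.02 with TPM). With TPM, PSMC3 alone of these genes was called lower, against 8.84% of all tested genes. PSMC3 (Rpt5) was at 138, 122 and 123 FPKM at 0 Gy and at 106, 101.4 and 109 at 10 Gy, a change of -17.3% with no overlap. Its log2 fold change was -0.27 ± 0.05 (adjusted p = 0.0092), and PSMC3 was called lower in all 17 alternatives. PSMC5 (Rpt6) fell from 56.6, 50.4 and 51.9 FPKM to 44.2, 44.9 and 45.3 (log2 fold change -0.23 ± 0.05, adjusted p = 0.0080). PSMC1, the lowest ATPase, was at 14.6, 13.9 and 13.8 FPKM at 0 Gy and at 12.4, 12.8 and 12.5 at 10 Gy (adjusted p = 0.014). PSMC4 and PSMC6 fell by smaller amounts (-8.95% and -8.11%) and were called lower in 11 and 6 of the 17 alternatives, with PSMC6 turning positive with TPM (0.0064). PSMC2 was not called (-8.56%, adjusted p = 0.080).

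PSMD11, a lid subunit, was at 32.8, 33.6 and 33.9 FPKM at 0 Gy and at 28.7, 27.6 and 29.2 at 10 Gy, with no overlap (log2 fold change -0.22 ± 0.03, adjusted p = 0.0031). The ubiquitin receptor PSMD4 fell from 66.7, 58.9 and 60.7 FPKM to 54.6, 50.9 and 54.9 (log2 fold change -0.21 ± 0.05, adjusted p = 0.021). PSMD13, another lid subunit, changed by -13.9% and the scaffold PSMD1 by -11.04%, both called. PSMD2, the highest of this set, was at 137, 128 and 130.2 FPKM at 0 Gy and at 118, 117 and 119 at 10 Gy (adjusted p = 0.016). PSMD6, the lowest, was at 15.9, 15.3 and 15.2 FPKM at 0 Gy and at 13.99, 13.7 and 14.6 at 10 Gy (adjusted p = 0.033, called lower in 6 of 17 alternatives). PSMD14, the deubiquitinase of the lid, fell by 8.75% (adjusted p = 0.032, called lower in 7 of 17 alternatives). PSMD3 (-5.07%) and PSMD7 (-10.3%) did not pass, and the doses overlapped in PSMD7.

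Assembly chaperones were counted by the particle they serve. All 4 core chaperones had lower values in every irradiated library, as did 32.8% of all tested genes. Of the 4, 3 were called lower, against 23.7% of all tested genes, and PSMG1 and PSMG3 kept that call with TPM. The median log2 fold change was -0.25 (-0.12 with TPM). PSMG3 was at 23.0, 21.1 and 16.8 FPKM at 0 Gy and at 14.7, 14.1 and 14.6 at 10 Gy. The controls varied widely (SD 3.19 FPKM), and the lowest control was still above the irradiated libraries (log2 fold change -0.45 ± 0.10, adjusted p = 0.013). PSMG1, the partner of PSMG2 in a chaperone dimer, was at 20.8, 20.3 and 18.4 FPKM at 0 Gy and at 16.2, 14.7 and 16.1 at 10 Gy. Its log2 fold change was -0.33 ± 0.06 (adjusted p = 0.0050) and it was called lower in all 17 alternatives. PSMG2 fell by 11.3% (adjusted p = 0.035, called lower in 7 of 17 alternatives), and PSMG4, the partner of PSMG3, was at 1.71, 1.65 and 1.55 FPKM at 0 Gy and 1.52, 1.31 and 1.503 at 10 Gy without being called (adjusted p = 0.247). The base chaperones PSMD5, PSMD9 and PSMD10 (gankyrin) showed log2 fold changes of -0.04, 0.0024 and -0.0092, and none was called by limma or had an unadjusted p under 0.05. PSMD5 was at 23.4, 24.96 and 24.3 FPKM at 0 Gy and at 23.2, 23.6 and 23.7 at 10 Gy. PSMD9 was at 1.89, 1.68 and 1.53 FPKM at 0 Gy and 1.76, 1.64 and 1.70 at 10 Gy, with overlap in both genes. Their changes turn positive for PSMD5 and PSMD10 with TPM, upper quartile and own-read scaling. Whether the core and base chaperones differ in their change was not tested.

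The activators moved in both directions. PSME4 (PA200), a nuclear activator linked to histone turnover and DNA repair, was the only member called higher. It was at 9.48, 10.3 and 10.0 FPKM at 0 Gy and at 10.7, 10.8 and 11.2 at 10 Gy, with every irradiated library above the controls. Its log2 fold change was 0.13 ± 0.04 (adjusted p = 0.043), positive under all scalings, and it was called in 9 of 17 alternatives. PSME3 (PA28 gamma), the nuclear 11S activator, was called lower, from 63.9, 68.4 and 65.8 FPKM to 61.0, 57.4 and 60.0 (log2 fold change -0.15 ± 0.04, adjusted p = 0.022), and in 8 of 17 alternatives. PSME1 was at 91.8, 79.6 and 79.1 FPKM at 0 Gy and at 87.0, 88.0 and 88.1 at 10 Gy (log2 fold change 0.07, adjusted p = 0.358). PSME2 was at 37.9, 35.3 and 32.2 FPKM at 0 Gy and at 35.4, 37.4 and 38.4 at 10 Gy (log2 fold change 0.08, adjusted p = 0.350). These neighbouring genes lie 4394 bases apart on chromosome 14, both overlapped between doses, and both were called higher with TPM and upper quartile scaling. PSME1 was also called higher without 0 Gy library 1. PSMF1 (PI31) was at 27.1, 27.02 and 25.7 FPKM at 0 Gy and at 25.5, 24.8 and 24.5 at 10 Gy, without overlap, and was not called (-6.42%, adjusted p = 0.072).

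The promoter matches can be set beside these changes. Of the 8 members with the interferon-type core GAAANNGAA, 0 were called lower by limma (2 had an unadjusted p under 0.05 with a negative change), with a median log2 fold change of -0.06. Among the other 31 tested members with a window, 20 were called lower, with a median of -0.14. PSMA4 and PSMC2, which hold the core, were called lower in 3 of 17 alternatives each. For the antioxidant response element core TGACNNNGC the counts were 7 of 15 members called lower with it and 13 of 24 without it, with medians of -0.13 and -0.12. Of the 15 with it, 1 (PSME4) was called higher and 7 were not called. For the other interferon-type element TTCNNNGAA they were 4 of 6 with it (66.7%) and 16 of 33 without it (48.5%). For the CCAAT box they were 11 of 18 (61.1%) and 9 of 21 (42.9%). These counts use the deposited scaling, under which 23.7% of all tested genes were called lower. With TPM only 3 members (PSMC3, PSMG1 and PSMG3) were called lower, so most of the calls counted here depend on the scaling. The counts were made after the calls were known and carry no test.

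Other genes of the pathway were counted from lists of general knowledge. Of 12 partners of the proteasome outside the naming rule, 6 were called lower and 0 higher, with a median log2 fold change of -0.10 (0.03 with TPM). Of all tested genes, 23.7% were called lower and 11.9% higher, with a median of -0.04 (0.07 with TPM). The ubiquitin receptor ADRM1 was at 106, 100.3 and 99.6 FPKM at 0 Gy and at 83.1, 83.5 and 85.2 at 10 Gy (adjusted p = 0.0017), and PITHD1 changed by -24.8% (adjusted p = 0.0037). AKIRIN2, which is needed for import of proteasomes into the nucleus, changed by -15.2% (adjusted p = 0.0029), and SEM1, ECPAS and UBE3C were the other genes called. The core maturation factor POMP was not called (-6.88%, adjusted p = 0.106). ADRM1 and PITHD1 were called lower under all 5 scalings. With TPM they were the only partners called lower and ZFAND5 was called higher, against 8.84% lower and 25.8% higher of all tested genes. The change of UBE3C turned positive with TPM (0.03, adjusted p = 0.617). Among shuttle factors that carry ubiquitylated substrates, RAD23B (-12.1%) and UBQLN2 (-13.3%) fell and UBQLN4 rose (8.31%). With TPM, RAD23B and UBQLN2 were no longer called.

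NFE2L1 itself was at 97.6, 102.9 and 94.3 FPKM at 0 Gy and at 91.0, 92.9 and 91.7 at 10 Gy and was not called (log2 fold change -0.10, adjusted p = 0.091). Of the 9 genes listed for its pathway, 3 were called lower and 2 higher, against 23.7% and 11.9% of all tested genes. With TPM 1 was called lower and 2 higher, against 8.84% and 25.8%. The small MAF genes MAFG (-19.2%, adjusted p = 0.00071) and MAFF (-15.7%, adjusted p = 0.0067) fell. MAFK, the other small MAF gene listed, was not called (-3.88%, adjusted p = 0.582). NGLY1, which removes glycans from NFE2L1, also fell (-13.8%, adjusted p = 0.037). SYVN1 and SEL1L, parts of a ubiquitin ligase that acts on NFE2L1, rose by 15.2% and 15.01% (adjusted p = 0.0034 and 0.0067). VCP (-3.13%) and DDI2 (-3.42%), the other listed genes, were not called by limma (adjusted p = 0.345 and 0.676). Whether the activity of NFE2L1 changed was not tested. With TPM scaling, MAFF and NGLY1 were no longer called (NGLY1 also with upper quartile and own-read scaling), while MAFG, SYVN1 and SEL1L kept their calls. Of 12 interferon-linked antigen processing genes, 0 were called by limma in either direction with the deposited values (median log2 fold change 0.05) or with median-of-ratios scaling. With TPM 7 were called higher, against 25.8% of all tested genes. With upper quartile scaling 5 were called higher (against 21.1%) and with own reads 4 (against 19.0%). HLA-B was at 64.5, 56.8 and 48.8 FPKM at 0 Gy and at 63.9, 66.7 and 66.2 at 10 Gy (adjusted p = 0.101). IRF1 and TAP1, the neighbour of PSMB9, changed by 11.02% and 7.13% without passing the test (adjusted p = 0.097 and 0.066). HLA-B, IRF1, TAP1 and TAP2 were called higher with TPM, upper quartile and own-read scaling, but not with median-of-ratios scaling. Their adjusted p-values in limma with TPM were 0.016, 0.016, 0.0054 and 0.0095.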

How the data were processed

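Expression values from MDA-MB-231 cells (3 libraries at 0 Gy, 3 at 10 Gy) were used, grouped by the treatment and names in the sample labels. The authors deposited FPKM values from polyA libraries, and the submitters' processing notes name HISAT2 and GRCh38. The counting program, its handling of strand and of reads in shared exons, and the origin of the scaling factor are not given in the sources used here. Multiplying FPKM by length and by the divisor implied for the library gave whole reads (within 0.05) for 100% of values, 15643641 to 28861781 per library. These reads served for depth and for limma-voom as an alternative.

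The 12128 genes whose mean over the 6 libraries reached 1 FPKM, 45 members among them, were compared on log2(FPKM + 1) with limma 3.58.1 in R 4.3.3 (eBayes with trend, two-sided, Benjamini-Hochberg adjusted p under 0.05). Fold changes are on that scale and understate those of low genes. Ratios were compared by exact permutation tests. The procedure was tested on simulated data. The main test did not pair libraries by replicate number, and no source used here says whether they were paired. Gene models came from GENCODE 29, whose identifiers match 100% of rows, and promoters from RefSeq. The principal transcript was chosen by APPRIS rank, support level and length. No protein sequences were used. Some genes of the pathway lists are not reported here. The members, their roles and the gene lists were chosen with earlier results of these data known. Values per library are given for the catalytic subunits, the called members with the largest changes (up to 8 in each direction), the highest and lowest gene of each role and members under the filter, and genes named beyond this rule were chosen after their values were seen. Plots were made in matplotlib 3.10.9 under Python 3.11.15.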

Additional observations from a re-analysis of the deposited data

How the results depend on the processing

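Calls depended most on scaling, on the filter and on single libraries. Without a filter on low values, 12 members were called lower and 0 higher, and 1815 genes were called lower. With a minimum mean of 5 FPKM, 874 genes were called higher. TPM scaling called 3 members lower and 4 higher, and 1073 genes lower and 3137 higher. Upper quartile scaling called 8 and 3 members, and 1444 and 2561 genes. With each library's own reads as divisor, an alternative chosen after seeing the data, 12 members were called lower, and 1650 genes lower and 2301 higher. Under the replicate block, 19 members were called lower and 0 higher, and same-numbered libraries did not deviate together (correlations of -0.0405, -0.0349 and -0.101). Without an eBayes trend 0 members were called higher. Leaving out each library in turn left 12 to 25 members lower and 0 or 1 higher, with 1808 to 2630 genes lower and 852 to 1393 higher. The 12 was without 10 Gy replicate 1 and 13 without 10 Gy replicate 2, where 1830 and 1808 genes were called lower and 875 and 852 higher. The 3 ratios kept the sign of their mean difference under every alternative run on them. With 0.1 FPKM added in place of 1, however, the doses overlapped in PSMB10 to PSMB7.

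Some members that were not called, and PSMC6, which was called lower, changed sign with TPM: PSMB4 (0.019), PSMB1 (0.027), PSMD3 (0.052), PSMC2 (0.00070), PSMA5 (0.016), PSMF1 (0.032), PSMD5 (0.081), PSMC6 (0.0064), PSMD10 (0.11), PSMA1 (0.036), PSMB9 (0.076) and PSMB10 (0.089). With upper quartile scaling these were PSMD3 (0.017), PSMD5 (0.046), PSMD10 (0.078), PSMA1 (0.0014), PSMB9 (0.044) and PSMB10 (0.059), and with own reads PSMD5 (0.029), PSMD10 (0.062), PSMB9 (0.029) and PSMB10 (0.045). PSMB10 was at 0.00083 with limma-voom. Leaving out 1 library also changed the sign of some genes, with ranges of -0.13 to 0.053 for PSMB9, -0.080 to 0.038 for PSMB10, -0.045 to 0.053 for PSMD9, -0.0016 to 0.12 for PSMA6, -0.021 to 0.056 for PSMB8 and -0.033 to 0.0083 for PSMD10. The cause was not tested. With 3 libraries a dose, the 95% interval of a member's log2 fold change had a median half-width of 0.10, so changes smaller than this were mostly not detectable.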
